A study of Bos taurus with 12 samples.

Results

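The genes of lipoprotein lipase and fatty acid uptake were followed in the mammary gland (MG) of lactating Holstein cows under feed restriction. They were 8 genes chosen by name for their place in this pathway, namely LPL, GPIHBP1, LMF1, ANGPTL4, VLDLR, CD36, SLC27A6 and SLC27A1, of 12787 genes with a named probe on the array. Their probes were found through the RefSeq transcript that the scanner files give for each probe. Probes were found for 7 of the 8 genes, 16 in all, while none mapped to GPIHBP1, whose transcript is not analysed here. A gene without a named probe may still be measured by a probe that received no symbol. RNA came from biopsies of 6 multiparous cows in midlactation, each sampled in both periods. In the CONT period (day 0, 6 arrays) the cows ate a lactation diet ad libitum, and in the REST period (day 6, 6 arrays) their feed was cut to 50% of their net energy requirement for lactation. Per the study's methods, successive biopsies alternated between the sides of the rear udder, so the period and the side changed together, while each cow was its own control.

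The lactating mammary gland takes a large part of its milk fat from the blood. Lipoproteins rich in triglyceride are held at the capillary wall, where lipoprotein lipase (LPL) cleaves their triglyceride and frees fatty acids. LMF1 is the chaperone of the endoplasmic reticulum that lets LPL fold into an active enzyme, GPIHBP1 carries LPL across the endothelium and anchors it there, and ANGPTL4 is a secreted inhibitor of LPL that is induced by fasting in other tissues. The VLDL receptor (VLDLR) binds lipoproteins in the company of LPL, CD36 is a membrane receptor that assists the entry of long-chain fatty acids, and SLC27A1 and SLC27A6 are fatty acid transport proteins with acyl-CoA synthetase activity.

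Signals are given as log2 values relative to the 75th percentile of the array, so that a difference of 1 is a doubling, and they were compared only within a probe. A gene was called when limma, with the cow as a block, gave an adjusted p under 0.1 over all 19403 tested probes for its brightest tested probe. By this rule 3 of the 7 tested members were called, LPL lower in REST, ANGPTL4 and SLC27A1 higher. Over all tested genes, 16.2% were called (1285 of 7930), 6.94% higher and 9.27% lower. The median change of the members was -0.05 and that of all tested genes was -0.01. Of the 16 member probes, 13 were tested and 5 were called, 3 of them for LPL, beside 16.0% of all tested probes (3104). The remaining 4 tested members, LMF1, VLDLR, CD36 and SLC27A6, were not called with any probe. Without the block, 2 of 7 members were called (LPL and ANGPTL4), where 4.40% of all tested genes and 4.31% of all tested probes were.

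**Figure D1:**
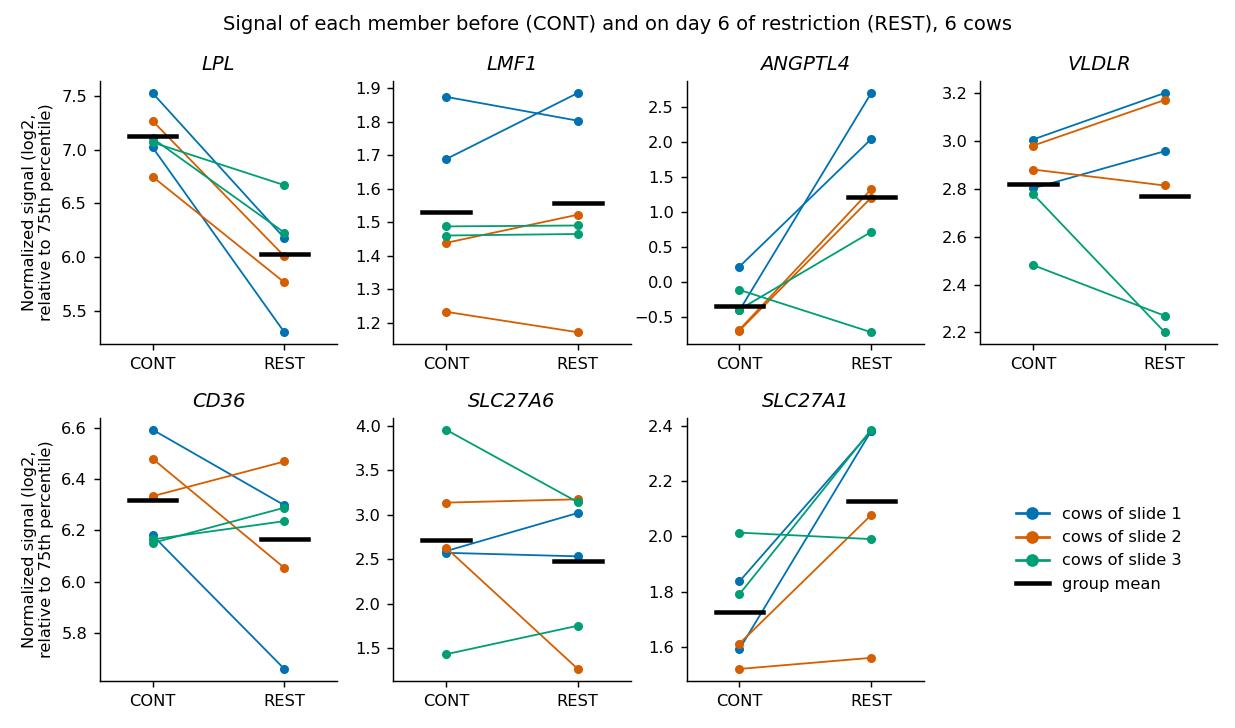
Normalized signal (log2, relative to the 75th percentile of the array) of the brightest probe of each measured member, with CONT and REST on the horizontal axis; each line joins both arrays of 1 cow, colours give the slide, and black bars are group means (n = 6). All 6 lines of LPL descend, 5 of 6 lines of ANGPTL4 and of SLC27A1 ascend, and those of VLDLR, CD36 and SLC27A6 cross. The vertical scale differs between panels.

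The arrays lay on 3 slides of 4, and both arrays of a cow shared a slide, so each slide held 2 cows in both periods. Slide 3 (cows 5 and 6) was dimmer, with a 75th percentile of 73.2 to 117 intensity units against 252 to 390.0 on the others, and 41.9 to 48.0% of its spots were well above background against 61.8 to 67.9%. All 13 tested member probes were well above background on all 12 arrays, slide 3 included. The series description counts 5 cows where the labels name 6, so the fits were repeated without each cow. Per the study's methods, a Holstein cow was excluded for mastitis, an inflammation of the udder. The labels do not say which cow this was or whether its arrays are among those used here. Transcripts of the milk-secreting epithelium were present, with the casein probes of CSN1S1 and CSN3 at 9.79 ± 0.12 and 9.98 ± 0.18 in CONT (SD, n = 6). Of 8 adipocyte markers with a named probe, CFD, GPD1 and ADIPOR2 were well above background on all 12 arrays, and PLIN1, AQP7 and RETN on none.

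LPL, the enzyme itself, had the smallest adjusted p of the members. Its brightest probe lay between 6.75 and 7.53 in CONT, with a median of 7.09, and between 5.30 and 6.67 in REST, with a median of 6.09. The highest REST array was thus below the lowest CONT array, as for 1.66% of all tested genes (132 of 7930), while for 2.27% (180) the groups did not overlap in either direction. The mean fell from 7.13 ± 0.26 to 6.02 ± 0.46 (SD, n = 6 each), a change of -1.10 ± 0.16 (SE; adjusted p = 0.00885, limma), or a REST signal of 0.466 times that of CONT. The 95% interval of the change was -1.46 to -0.75. An exact two-sided sign-flip test over the 6 cows gave p = 0.03125, the smallest that 6 pairs allow. Only 33 of 7930 tested genes had a lower change.

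The fall of LPL was seen in 6 of 6 cows but differed in size between them. It was -1.35 and -1.73 in cows 1 and 2, -0.99 and -1.26 in cows 3 and 4, and -0.40 and -0.88 in cows 5 and 6. Cow 5 changed least and cow 2 most. Averaged within slides, the change was -1.54 on slide 1, -1.13 on slide 2 and -0.64 on the dim slide 3. With each cow left out in turn the change stayed between -1.24 and -0.98, and LPL was called each time.

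All 3 probes of LPL, which map to the transcript NM_001075120, were called. Another probe fell from 5.12 ± 0.21 to 3.60 ± 0.74, by 1.52 on the log2 scale (SE 0.23; adjusted p = 0.0110, limma), and the least bright one from 1.73 ± 0.26 to 0.16 ± 0.50, by 1.58 (SE 0.18; adjusted p = 0.00593, limma). For each of them CONT and REST did not overlap either. The brightest probe gave the smallest fall in 6 of 6 cows. Its change was above that of the probe of middle brightness by 0.42 ± 0.32 and above that of the least bright one by 0.47 ± 0.21 (SD, n = 6; exact sign-flip p = 0.03125 for both, 0.0469 after adjustment over 3 pairs of probes). These other probes differed by 0.06 ± 0.18 (exact sign-flip p = 0.469). As ratios of REST over CONT the 3 probes thus gave 0.466, 0.349 and 0.335. The number of saturated spots was 0 on each array, and why the probes differ was not tested.

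**Figure D2:**
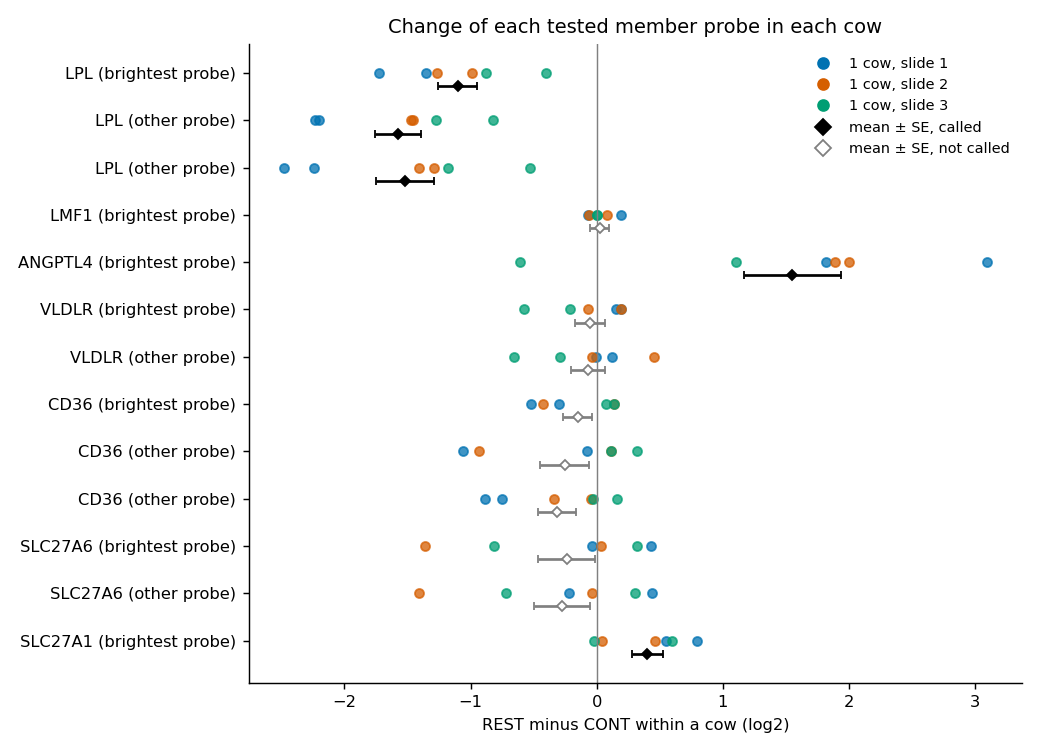
REST minus CONT (log2) of every tested member probe on the horizontal axis, with 1 row per probe; coloured points are the 6 cows, by slide, and diamonds are the mean ± SE from the paired limma fit, filled where called. The 3 probes of LPL lie wholly below 0, from -2.48 to -0.40, whereas the cows of VLDLR, CD36 and SLC27A6 fall on both sides.

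MG biopsies hold several cell types, and in such bulk RNA fewer cells of a type and less RNA per cell cannot be told apart. Of 12 tested luminal epithelial markers (13 of 14 had a named probe), 2 were called higher (KRT8 by 0.72 and KRT18 by 0.52, keratins of these cells). Another 2 were called lower (the caseins CSN1S1 by -0.26 and CSN3 by -0.28), and the 8 not called ranged from -0.20 to 0.33. Of all tested genes, 16.2% were called. None of these marker calls was made without the block, and KRT8 alone was called with each cow left out. The summed luminal signal, in multiples of the 75th percentile, ranged from 5327 to 6707 in CONT and from 4511 to 5852 in REST. Of 3 tested adipocyte markers (8 of 10 had a named probe), CFD was called higher by 0.78 and ADIPOR2 lower by -0.48, neither of them called without the block. ADIPOR2 was called in 2 of the 6 fits with a cow left out. The summed signal of this list ranged from 52.1 to 70.7 in CONT and from 53.3 to 82.1 in REST. GPD1 was its brightest tested gene, at 5.56 ± 0.20 in CONT beside 2.80 ± 0.43 for CFD and 1.49 ± 0.63 for ADIPOR2 (SD, n = 6). PLIN1, AQP7 and RETN were well above background on no array, so the sum is no measure of adipocytes alone. The part of cell composition in the difference of LPL was not tested.

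LMF1, the folding factor of LPL, was not called. Its single probe (NM_001075190) lay between 1.23 and 1.87 in CONT, with a median of 1.47, and between 1.17 and 1.89 in REST, with a median of 1.51. The groups overlapped over nearly their whole range. The mean was 1.53 ± 0.22 in CONT and 1.56 ± 0.26 in REST, a difference of 0.03 ± 0.08 (SE; adjusted p = 0.851, limma). Its 95% interval, -0.14 to 0.20, corresponds to REST signals of 0.905 to 1.15 times CONT. Of the members LMF1 varied least from cow to cow, with changes from -0.07 to 0.20.

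ANGPTL4, the inhibitor of LPL, was called higher in REST. Its single probe (NM_001046043) lay between -0.69 and 0.22 in CONT, with a median of -0.39, and between -0.71 and 2.70 in REST, with a median of 1.27. The REST arrays were thus far more spread than the CONT arrays, and 1 REST array, that of cow 5, lay just below the lowest CONT array, while the other 5 lay above the highest. The mean rose from -0.34 ± 0.35 to 1.21 ± 1.17 (SD, n = 6), a change of 1.55 ± 0.39 (SE; adjusted p = 0.0451, limma) or 2.93-fold, with a 95% interval of 1.60 to 5.38-fold. The exact sign-flip test gave p = 0.0625. Only 9 of 7930 tested genes rose more.

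The rise of ANGPTL4 was found in 5 of 6 cows. Cow 1 had the largest, 3.1, and cows 2, 3, 4 and 6 had 1.82, 2.0, 1.90 and 1.11, whereas cow 5 had -0.60. Within slides the mean change was 2.46 on slide 1, 1.95 on slide 2 and 0.25 on slide 3, whose cows went in opposite directions. With cow 5 left out the change was 1.98, and on slides 1 and 2 alone, an alternative chosen after the data were seen, it was 2.20. The call was lost without cow 1 (1.24, adjusted p = 0.104, limma), without cow 2 (1.5, adjusted p = 0.126) or without cow 4 (1.48, adjusted p = 0.123). Endothelial cells are among the cells that can express ANGPTL4. Of 10 tested endothelial markers (12 of 12 had a named probe), 2 were called higher in REST, VWF by 0.54 and CLDN5 by 0.74. None was called lower, and the 8 not called ranged from -0.15 to 0.32. Of all tested genes, 16.2% were called. The summed endothelial signal ranged from 42.1 to 60.6 in CONT and from 53.8 to 74.5 in REST, and its part in the difference of ANGPTL4 was not tested.

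VLDLR, the lipoprotein receptor, was not called with either tested probe. The brightest probe (NM_174489) lay between 2.48 and 3.01 in CONT, with a median of 2.84, and between 2.20 and 3.20 in REST, with a median of 2.89. The REST arrays reached further on both sides. The mean difference was -0.05 ± 0.12 (SE; adjusted p = 0.80, limma), with a 95% interval of 0.803 to 1.16 times CONT, and the second tested probe gave -0.07 ± 0.13 (adjusted p = 0.777, limma). The cows fell on both sides of 0, at 0.16, 0.19, -0.07, 0.19, -0.58 and -0.21 for cows 1 to 6. Both cows of slide 3 were negative, with a mean of -0.40 against 0.18 on slide 1 and 0.06 on slide 2, and the mean turned to 0.05 without cow 5 and to 0.12 on slides 1 and 2 alone. It was also above 0, at 0.07, after normexp background correction. The remaining probe was well above background on 4 arrays of each group and was not tested.

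CD36, the fatty acid receptor, was not called with any of its 3 probes. The brightest (NM_001278621) lay between 6.15 and 6.59 in CONT and between 5.66 and 6.47 in REST, with a median of 6.26 in both. The difference in means was -0.15 ± 0.11 (SE; adjusted p = 0.427, limma), with a 95% interval of 0.753 to 1.08 times CONT. The other probes gave -0.25 ± 0.19 (adjusted p = 0.431, limma) and -0.31 ± 0.15 (adjusted p = 0.204, limma), and the latter was lower in 5 of 6 cows. With the brightest probe, cows 1, 2 and 4 had values of -0.29, -0.52 and -0.43, and cows 3, 5 and 6 had 0.14, 0.14 and 0.07. CD36 is also made by macrophages and endothelial cells. Of 8 tested macrophage markers (9 of 11 had a named probe) 1 was called, C1QA at -0.47, though not without the block, and their summed signal ranged from 12.5 to 31.9 in CONT and from 12.4 to 27.6 in REST.

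SLC27A6, a fatty acid transport protein, had a wide spread between cows and was not called. Its brightest probe (NM_001101169) lay between 1.43 and 3.96 in CONT, with a median of 2.61, and between 1.27 and 3.18 in REST, with a median of 2.78. The SD was 0.83 in CONT and 0.80 in REST, the largest CONT SD among the brightest probes of the members. The mean difference was -0.24 ± 0.23 (SE; adjusted p = 0.528, limma), and its 95% interval, 0.594 to 1.21 times CONT, was wide. Cows 3 and 5 had changes of -1.36 and -0.82, whereas the other 4 cows lay between -0.04 and 0.43. The second tested probe gave -0.27 ± 0.22 (adjusted p = 0.458, limma), and the remaining one was well above background on no array (0 of 12).

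SLC27A1, the other transport protein, was called higher, by a smaller margin than ANGPTL4. Its tested probe (NM_001033625) lay between 1.52 and 2.01 in CONT, with a median of 1.70, and between 1.56 and 2.39 in REST, with a median of 2.23. The groups overlapped. The mean rose from 1.73 ± 0.19 to 2.13 ± 0.33 (SD, n = 6), a change of 0.40 ± 0.12 (SE; adjusted p = 0.0750, limma) or 1.32-fold, and the exact sign-flip test gave p = 0.0625. Cows 1, 2, 4 and 6 had changes of 0.79, 0.55, 0.47 and 0.60, while cows 3 and 5 had 0.04 and -0.02. Without the block, SLC27A1 was not called (adjusted p = 0.192, limma), and the call was also lost without cow 1 (0.33), cow 2 (0.37), cow 4 (0.39) or cow 6 (0.36). A second probe was well above background on 1 CONT and 3 REST arrays and was not tested.

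**Figure D3:**
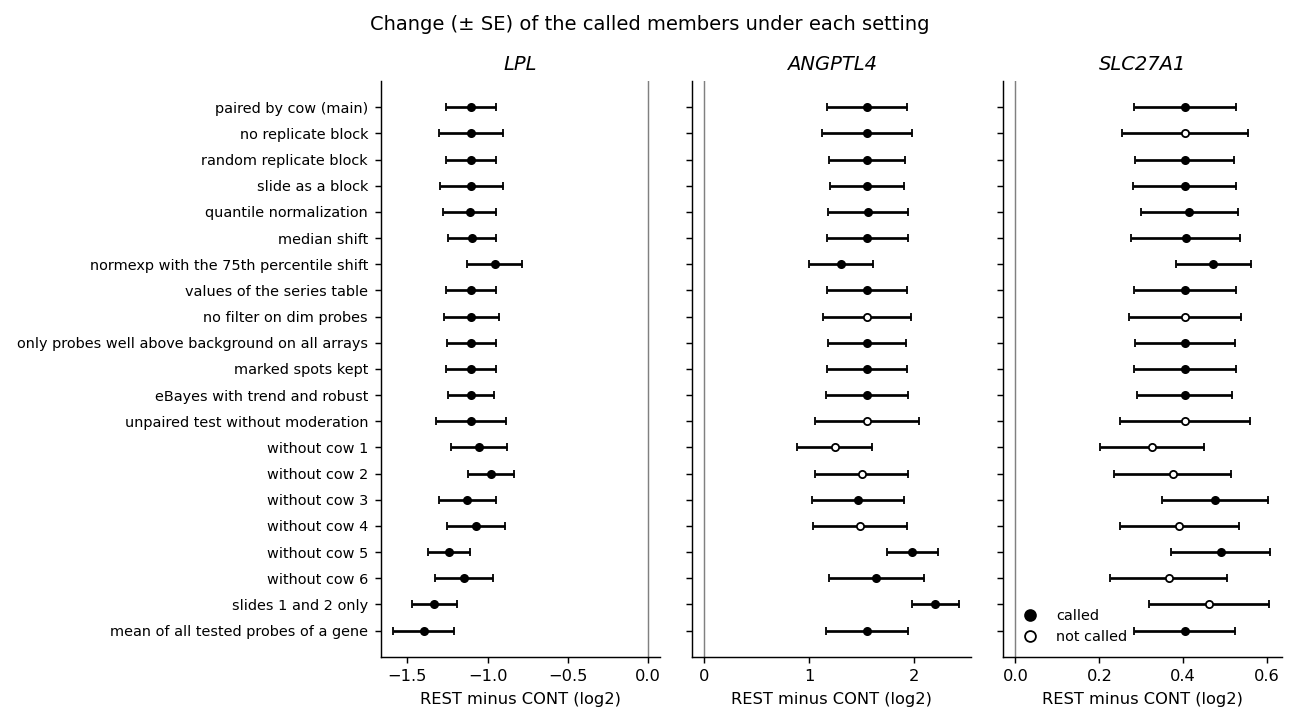
REST minus CONT (log2, ± SE, horizontal axis) of LPL, ANGPTL4 and SLC27A1 in the paired limma fit and under 20 other settings (rows); filled points were called, open points were not. LPL was called under every setting shown, between -1.40 and -0.96, while ANGPTL4 and SLC27A1 kept their sign and lost the call under some.

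Since the cows differed in the size of their response, the change of LPL in each cow was set against that of the 6 other measured members. The arrays share slides and the scaling, and 6 cows make these relations coarse. The permutations treat the cows as exchangeable and take no account of the slide, although the slide means of LPL, VLDLR and CD36 were ordered from slide 1 to slide 3 (-1.54, -1.13 and -0.64 for LPL, 0.18, 0.06 and -0.40 for VLDLR, and -0.41, -0.15 and 0.10 for CD36). Swaps within slides are too few for a test, so relations between cows and between slides cannot be told apart by these p-values. Cows with a larger fall of LPL had a higher change of VLDLR (Pearson r = -0.94, exact permutation p = 0.00417, 0.0250 after adjustment over 6 relations). Spearman's rho was -0.94 (exact permutation p = 0.0167, 0.10 adjusted), so the rank form was not under 0.1. In the 4 cows left without cows 2 and 5, the farthest from the median of LPL, r was -0.96. The same omission moved the r of LMF1 from -0.10 to -0.87, so it is a weak check. Both cows of a slide kept this order on 3 of 3 slides, as they also did for SLC27A6 (r = -0.58, exact permutation p = 0.256). Over the 6 pairs of LPL and VLDLR probes r ranged from -0.94 to -0.58, and it was -0.76 after normexp background correction.

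The change of CD36 went with that of LPL (r = 0.88, exact permutation p = 0.0208, adjusted p = 0.0625). Spearman's rho was 0.89 (exact permutation p = 0.0333, 0.10 adjusted), again not under 0.1. In the 4 cows left without cows 2 and 5 r was 0.89, and the order held on 3 of 3 slides. Over the 9 pairs of probes r lay between 0.52 and 0.98. For ANGPTL4 the relation was negative and did not pass (r = -0.77, exact permutation p = 0.0806, adjusted p = 0.161; rho = -0.60, p = 0.242), and within slides the cow with the larger fall of LPL had the higher ANGPTL4 change on 1 of 3 slides. The relations with SLC27A1 (r = -0.67, exact permutation p = 0.142), SLC27A6 (r = -0.58, p = 0.256) and LMF1 (r = -0.10, p = 0.844) did not pass either, with rho of -0.54 (p = 0.297), -0.49 (p = 0.356) and 0.09 (p = 0.919). A slide holds 2 cows, too few for a correlation within it.

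**Figure D4:**
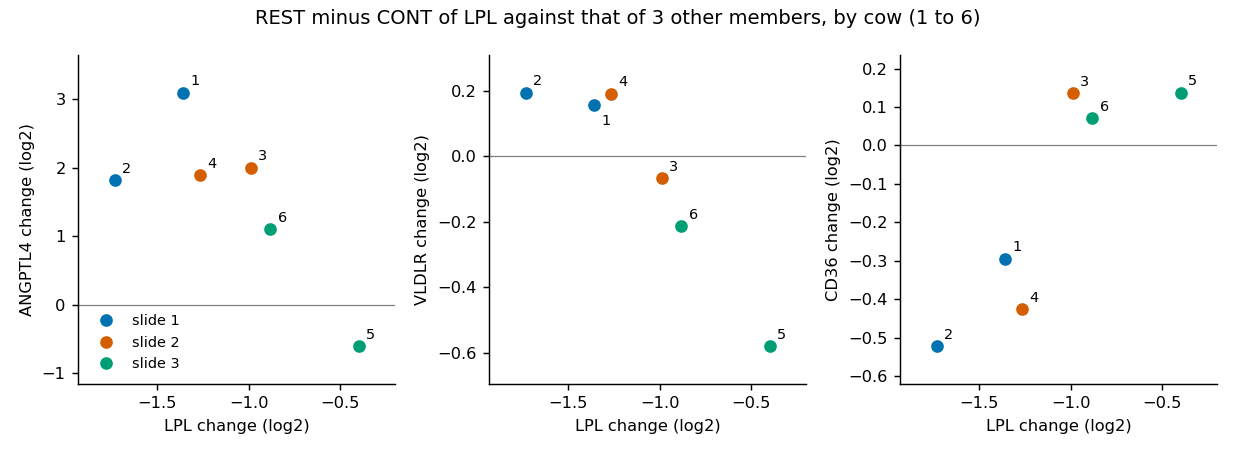
Change of ANGPTL4, VLDLR and CD36 (REST minus CONT, log2, vertical axes) against the change of LPL (horizontal axes), with 1 numbered point per cow, coloured by slide. The r over 6 cows is -0.77, -0.94 and 0.88, and cow 5, with the smallest fall of LPL, lies lowest for ANGPTL4 and VLDLR.

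Around the members, 7 lists of genes from the same pathway were examined. Of 49 tested genes on them, 13 were called (26.5%), 4 higher and 9 lower, against 16.2% of all tested genes. The counts of each list below are to be read beside this 16.2%. They include CPT1A, which passed the filter only through REST. Without the block 6 were called, 4 higher and 2 lower. The balance of directions depended on the processing, at 10 higher and 7 lower after normexp background correction and 5 higher and 9 lower after quantile scaling. The median change over the 49 genes was -0.03. The lists were written with results of these data known, so the counts are a description.

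Among the proteins that process, anchor or carry lipoproteins for LPL, 1 of 6 tested genes was called. This was APOE, a ligand of lipoprotein receptors, which rose from 4.70 ± 0.40 to 5.41 ± 0.19, by 0.71 ± 0.10 (SE; adjusted p = 0.00776, limma), in 6 of 6 cows. The other 5 lay between -0.25 and 0.19, and the median of the list was 0.08. APOC2, the activator of LPL, was well above background on no array. None of 3 other tested lipases was called (0 of 3), and their changes ranged from -0.00315 to 0.61 with a median of 0.42.

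Of the other lipoprotein receptors, 2 of 6 tested genes were called, both lower. SCARB1, the HDL receptor, fell by 0.42 (SE 0.13; adjusted p = 0.0813, limma) in 5 of 6 cows. Its call was lost without the block (adjusted p = 0.348, limma) and in 10 of 19 alternatives in all, among them those without cow 1, 3, 4 or 6 (adjusted p up to 0.190). Without the block, 0 of the 6 receptors were called. The other 4 ranged from -0.23 to 0.32.

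On the way from the membrane into the cell, 1 of 3 further genes of fatty acid transport was called. GOT2, a mitochondrial aminotransferase also described as a fatty acid binding protein of the plasma membrane, fell from 3.65 ± 0.04 to 3.13 ± 0.06 without overlap, by 0.51 (SE 0.07; adjusted p = 0.00797, limma). Inside the cell, 5 of 7 tested acceptors of fatty acids were called, all lower, with a list median of -0.38. FABP3, the main fatty acid binding protein of the lactating gland, fell from 9.29 ± 0.13 to 8.56 ± 0.28 without overlap, by 0.73 (SE 0.09; adjusted p = 0.00708, limma). DBI, which binds acyl-CoA, fell by 0.57 (adjusted p = 0.0355) and FABP5 by 0.55 (adjusted p = 0.0347). FABP4 was lower by -0.35 and ACSL1, an acyl-CoA synthetase, by -0.38, both named here to complete the count. Only FABP3 of the 5 was called without the block (1 of 7). It was also the only one of them called with each cow left out, since the call was lost without cow 4 for DBI (adjusted p = 0.104), without cow 2 or 4 for FABP5 (up to 0.107), without cow 2, 4 or 6 for FABP4 (up to 0.130) and without any cow but cow 1 for ACSL1 (up to 0.184).

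**Figure D5:**
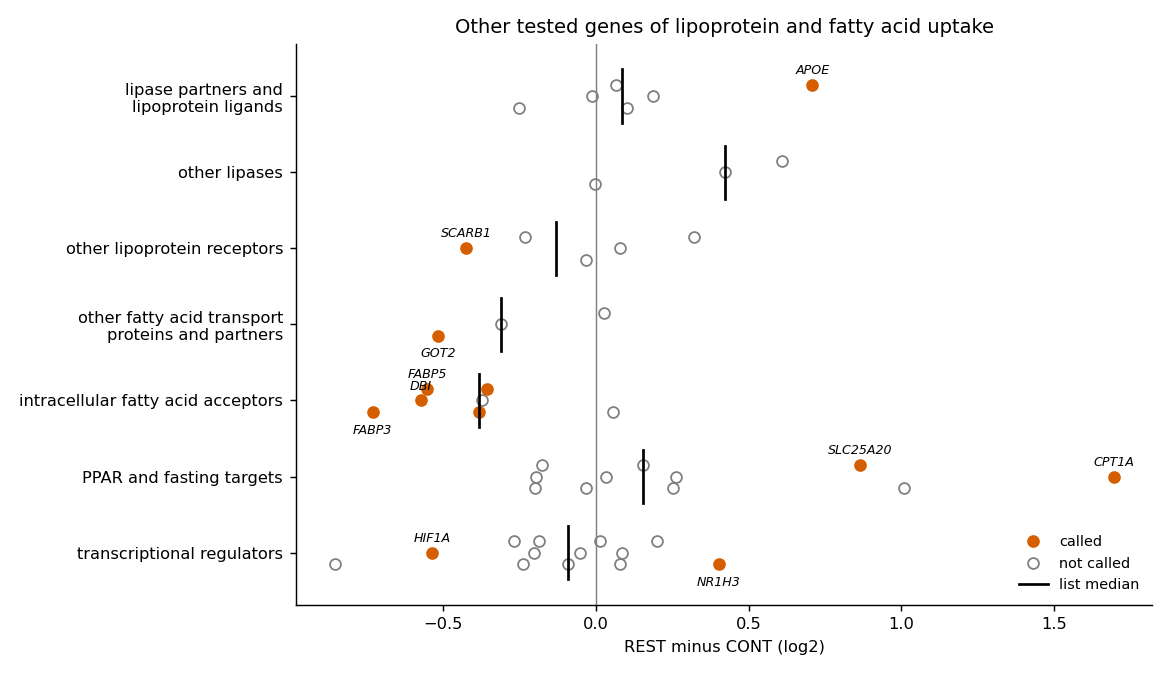
REST minus CONT (log2, horizontal axis) of 48 of the 49 tested genes of 7 lists around the members, with 1 row per list; filled points were called, open points were not, bars are list medians, and called genes with the largest changes are named. The acceptors of fatty acids lie mostly left of 0, with 5 of 7 called, while SLC25A20 lies at 0.87; the position of CPT1A (1.69) depends on the background correction and is 0.72 after normexp.

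ANGPTL4 is a target of the PPAR receptors, which respond to fatty acids, and 11 other textbook targets of fasting were tested. Of these, 2 were called, both higher, where 16.2% of all tested genes were called and 6.94% were called higher. SLC25A20, the carnitine carrier of the inner mitochondrial membrane, rose by 0.87 ± 0.10 (SE; adjusted p = 0.00474, limma) in 6 of 6 cows. CPT1A, which starts the entry of fatty acids into mitochondria, was called higher in 6 of 6 cows, but its probe was well above background on 4 of 6 CONT and 6 of 6 REST arrays and so passed the filter only through REST. The size of its change depended on the background, at 1.69 with the processed signal and 0.72 after normexp correction. The 9 that were not called ranged from -0.20 to 1.01, with a list median of 0.16. Of 13 tested transcriptional regulators, NR1H3, the liver X receptor alpha, rose by 0.40 ± 0.10 (adjusted p = 0.0482, limma), a call lost without cow 1, 2 or 4 (adjusted p up to 0.136) and with no filter on dim probes (0.160). HIF1A, the oxygen-responsive factor, fell by 0.54 (SE 0.11; adjusted p = 0.0294, and 0.152 without the block), and 11 were not called.

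Over the 12 arrays, the genes whose signal ran most closely with that of LPL, among 7922 ranked, were NDUFB3 (r = 0.977), ATP5ME (0.941), UQCR10 (0.937), NDUFA7 (0.935) and FABP3 (0.934). Between LPL and the other members r was -0.80 for ANGPTL4 and 0.59 for CD36, with those of LMF1, VLDLR, SLC27A6 and SLC27A1 between -0.56 and 0.17. The gene closest to ANGPTL4 was SNHG12 (0.883), that closest to VLDLR was LAMP3 (0.900) and that closest to CD36 was RAB26 (0.965). For LMF1 it was SORD (0.916), for SLC27A6 AFF1 (0.901) and for SLC27A1 RPL19 (0.950). These correlations are descriptions over arrays that share periods, cows, slides and scaling, and carry no test.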

How the data were processed

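Total RNA of 12 MG biopsies was labelled with Cy3 and hybridized to 12 one-colour bovine arrays. Per the file headers, the authors extracted spot intensity values with Agilent Feature Extraction 11.0.1.1, and the deposited processed signal is a background-subtracted, detrended intensity on a linear scale with no scaling between arrays. The value table of the series held the same intensities in all 45220 cells of every array, within a relative tolerance of 1e-06. From the deposited intensities, log2 signals were computed here and shifted by the 75th percentile that the non-control spots of an array gave. Spots marked as non-uniform or population outliers were left out (0 of the member spots), and repeat spots (50 probes) were averaged. Symbols were attached through RefSeq identifiers to 27131 of 43653 probes (62.2%). The array annotation uses the UMD_3.1 assembly, so no coordinates of the newer reference table are given.

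Probes well above background on all 6 arrays of CONT, of REST or of both were tested. The comparison of the periods used limma 3.58.1 in R 4.3.3 (lmFit and eBayes), with the cow as a fixed block, Benjamini-Hochberg adjustment over 19403 probes and a threshold of 0.1. The pairing comes from the animal named in the labels. After the group means were taken out, arrays of the same cow correlated with r of 0.355 to 0.574 across probes, and arrays of different cows with -0.33 to 0.135. A gene was represented by its brightest tested probe. Single values were tested with exact sign-flip or permutation tests, all two-sided (scipy 1.17.1, Python 3.11.15). The fits were tested on simulated data. The number of arrays limits the precision.

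The members and gene lists were chosen with earlier results of these data known. Named were all members, at most 3 called genes of each pathway list by absolute change, the 5 genes most correlated with LPL and the closest gene for each other member. Further named were FABP4 and ACSL1 to complete a count, APOC2 as the activator of LPL, the called cell type markers and some uncalled adipocyte markers. Counts and medians of the lists include 1 gene whose values are not reported here. Beside the 7 pathway lists, 8 lists of cell type markers were examined (luminal epithelial, myoepithelial, endothelial, adipocyte, macrophage, fibroblast, skeletal muscle and erythrocyte). Alternatives were no block, a random block, the slide as a block, quantile, median and normexp scaling (normexp on the median spot and background intensities with an offset of 50), the deposited value table, filters on dim and marked spots, eBayes with trend, an unpaired test without moderation, the mean of all probes of a gene and each cow left out.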

Additional observations from a re-analysis of the deposited data

How the results depend on the processing

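LPL was lower and called under all 20 alternatives (-1.40 to -0.96; adjusted p from 0.00113 to 0.0711, limma except in the test without moderation), and CD36 (-0.28 to -0.0230) and SLC27A6 (-0.37 to -0.0136) were called under none of them. CD36 was nearest 0 after normexp correction, and SLC27A6 without cow 3. The replicate block decided the call of SLC27A1, which was 0.40 without the replicate block (adjusted p = 0.192, limma). It moved the pathway genes called from 13 to 6 and the probes called from 3104 to 836, and it changed no other call of a member. With no filter on dim probes, ANGPTL4 (1.55, adjusted p = 0.152) and SLC27A1 (0.40, adjusted p = 0.192) were not called, 1 member, 5 pathway genes and 388 probes were. In the unpaired test without moderation, ANGPTL4 (1.55, adjusted p = 0.157) and SLC27A1 (0.40, adjusted p = 0.230) were not called, 1 member, 6 pathway genes and 722 probes were. With the slide as a block, 1898 probes were called. Of the 3104 probes called in the main fit, 1401 were higher and 1703 lower. This balance turned to 1985 higher and 1692 lower after normexp correction, and was 1545 higher and 1564 lower after quantile scaling. On slides 1 and 2 only, an alternative added after the data were seen, SLC27A1 was at 0.46 (adjusted p = 0.119) and VLDLR at 0.12, and VLDLR was at 0.0749 after normexp correction.

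With each cow left out in turn, ANGPTL4 ranged from 1.24 to 1.98, SLC27A1 from 0.33 to 0.49, VLDLR from -0.10 to 0.0524 (above 0 without cow 5), LMF1 from -0.00819 to 0.0456 (below 0 without cow 1), CD36 from -0.21 to -0.0753 and SLC27A6 from -0.37 to -0.0136. Members called ranged from 1 (without cows 1, 2 or 4) to 3, pathway genes called from 7 (without cow 4) to 21 (without cow 5), and probes called from 1045 to 3252 (1533, 1045 and 1205 without cows 1, 2 and 4). The counts over these subsets rest on 5 cows. The causes of these differences were not tested. Signal over background was lowest on slide 3, and the untested VLDLR probe missed the filter on its 4 arrays alone, whereas those of SLC27A1 and SLC27A6 also missed it on other slides.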

Other observations

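Of the other marker lists, the myoepithelial one had 3 of 9 tested genes called, KRT17 higher (0.44) and the contractile genes ACTA2 (-0.38) and CNN1 (-0.53) lower. Of all tested genes, 16.2% were called. In the 6 fits with a cow left out, KRT17 was called in 2, ACTA2 in 1 and CNN1 in 5. The summed myoepithelial signal was 126 to 235 in CONT and 116 to 223 in REST. None of 6 tested fibroblast markers was called with the block or without it (0 of 6), and their summed signal ranged from 34.2 to 63.9 in CONT and from 26.5 to 73.6 in REST. Of 2 tested skeletal muscle markers, CKM was called lower (-0.36), and in 1 of the 6 fits with a cow left out. The summed signals of this list were 2.39 to 3.95 in CONT and 2.0 to 3.15 in REST. The 1 tested erythrocyte marker was at -0.33 and was not called. Of the calls on these lists, none was made without the block.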
